A study of Homo sapiens with 11 samples.

Results

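The genes described here are the transcription factor gene NFE2L2, which encodes NRF2, and 8 genes known as NRF2 targets in the response to oxidative stress: TXNRD1, SRXN1, NQO1, HMOX1, GCLC, GCLM, SLC7A11 and OSGIN1. They were chosen by name, with earlier results of these data known. Every probe with 1 of these symbols was taken. This gave 12 probes for 8 of the 9 genes, among the 20046 genes named on the array. OSGIN1 was not analysed here. The 7 measured targets and NFE2L2 each exceeded the noise limit (7.408 on the log2 scale, set from the dimmest probes) with 1 or more probes on 11 of 11 arrays, and 11 of the 12 probes passed the filter. RNA came from MDA-MB-231, an established human triple-negative breast adenocarcinoma line, transfected with an siRNA against MASTL or with a negative control siRNA. MASTL (Greatwall) is a kinase of mitotic entry that acts on PP2A-B55 through ENSA and ARPP19. The groups were MASTL siRNA for 24 h (2 arrays, replicates 1 and 3), control siRNA for 24 h (3 arrays, replicates 1 to 3), MASTL siRNA for 48 h (3 arrays, replicates 1, 3 and 4) and control siRNA for 48 h (3 arrays, replicates 1, 3 and 4). A single siRNA was used against MASTL, so effects of MASTL loss and other effects of that siRNA cannot be told apart. The labels do not say whether replicates were separate cultures, so every p-value measures the spread between these arrays, which may be technical.

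NRF2 binds antioxidant response elements together with small MAF proteins and drives genes for glutathione, thioredoxin and quinone metabolism. In unstressed cells KEAP1 holds NRF2 on a CUL3 ubiquitin ligase, and the protein is degraded; oxidants and electrophiles act on KEAP1 and let NRF2 accumulate. Because this control acts on the protein, the NFE2L2 transcript and its targets are separate readouts, and some targets have further inputs, such as BACH1 for HMOX1 and ATF4 for SLC7A11.

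The siRNA is shown because it is the designed agent of the study. The promoter windows shown are those that held the core of the antioxidant response element, the element that NRF2 binds. The siRNA sequence is the one in the labels, and the gene lies on chromosome 10. The windows run from 250 bases before to 50 bases after an annotated transcript start in RefSeq (GRCh38.p14), are written 5' to 3' on the strand of the gene, and carry matches to TGACNNNGC on either strand in capitals.
MASTL siRNA: acgccttattctagcaaatta
GCLM, chr1:93909381-93909680, minus strand: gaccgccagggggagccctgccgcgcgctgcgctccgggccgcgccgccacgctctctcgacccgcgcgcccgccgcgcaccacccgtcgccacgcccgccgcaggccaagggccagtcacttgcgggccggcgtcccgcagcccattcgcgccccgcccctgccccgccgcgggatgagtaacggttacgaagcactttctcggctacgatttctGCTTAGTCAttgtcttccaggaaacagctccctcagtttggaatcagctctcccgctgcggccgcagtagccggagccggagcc
TXNRD1 first start, chr12:104215529-104215828, plus strand: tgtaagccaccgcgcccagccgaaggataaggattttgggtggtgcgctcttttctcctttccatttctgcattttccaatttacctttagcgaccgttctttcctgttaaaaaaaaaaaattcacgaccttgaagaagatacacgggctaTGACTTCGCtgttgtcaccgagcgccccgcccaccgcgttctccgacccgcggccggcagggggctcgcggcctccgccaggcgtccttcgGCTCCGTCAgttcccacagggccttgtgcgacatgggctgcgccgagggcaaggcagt
TXNRD1 second start, chr12:104286782-104287081, plus strand: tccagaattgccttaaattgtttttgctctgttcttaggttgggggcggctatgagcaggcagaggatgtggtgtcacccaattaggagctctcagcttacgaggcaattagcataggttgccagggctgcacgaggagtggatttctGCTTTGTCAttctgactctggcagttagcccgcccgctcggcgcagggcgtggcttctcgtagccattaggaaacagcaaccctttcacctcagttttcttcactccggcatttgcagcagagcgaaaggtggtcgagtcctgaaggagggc
The GCLM match began 34 bases before the start, on the opposite strand. The first TXNRD1 window held 2 matches, which began 99 and 8 bases before the start, and the second held 1, at 102 bases before it. None of these 4 matches overlapped TGANTCA, the core of an AP-1 site, searched in the same windows. RefSeq windows were matched for 7 of the 9 genes (9 windows), and 3 of the 9 windows held the core, against 13.3% of all 35116 promoter windows. The letters were not found in these windows of NFE2L2, GCLC, NQO1, OSGIN1 and SRXN1. An element outside a window would not be seen, so a miss does not mean that a gene lacks one. HMOX1 and SLC7A11 had no window and were not searched.

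Each array had 47321 probes, and the deposited values were normalized to nearly one distribution, with a median log2 value of 7.40 on every array. A total of 22323 features were tested. MASTL, the gene targeted by the siRNA, had log2 values of 7.61 and 7.69 at 24 h and 7.54, 7.53 and 7.67 at 48 h under MASTL siRNA. Under control siRNA it had 8.74, 8.73 and 8.64 at 24 h and 8.41, 8.42 and 8.72 at 48 h. The MASTL transcript was 2.08-fold lower at 24 h and 1.91-fold lower at 48 h (limma, adjusted p = 0.00138 and 0.00118), where a fold is 2 to the power of the difference in deposited values, and its second probe changed by -0.62 and -0.58 on the log2 scale. Of 10 markers listed for MDA-MB-231 and similar carcinoma cells, 10 were above the noise limit on all arrays. The limit was passed by 22986 of the 47321 probes on every array, so passing it says little about cell identity. CDH2 (7.42 to 7.53) and FN1 (7.45 to 7.86) lay close to it. Of 7 luminal breast markers, 4 (ERBB2, GATA3, FOXA1 and KRT7) were above it on all arrays, ESR1 on 1, and PGR and CDH1 on none. Of the markers listed for other cells, 2 of 4 for leukocytes, 1 of 3 for endothelium and 0 of 5 for fibroblasts were above it on all arrays, and their part in the results was not tested. In bulk RNA, fewer cells expressing a gene and less RNA per cell cannot be told apart.

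**Figure D1:**
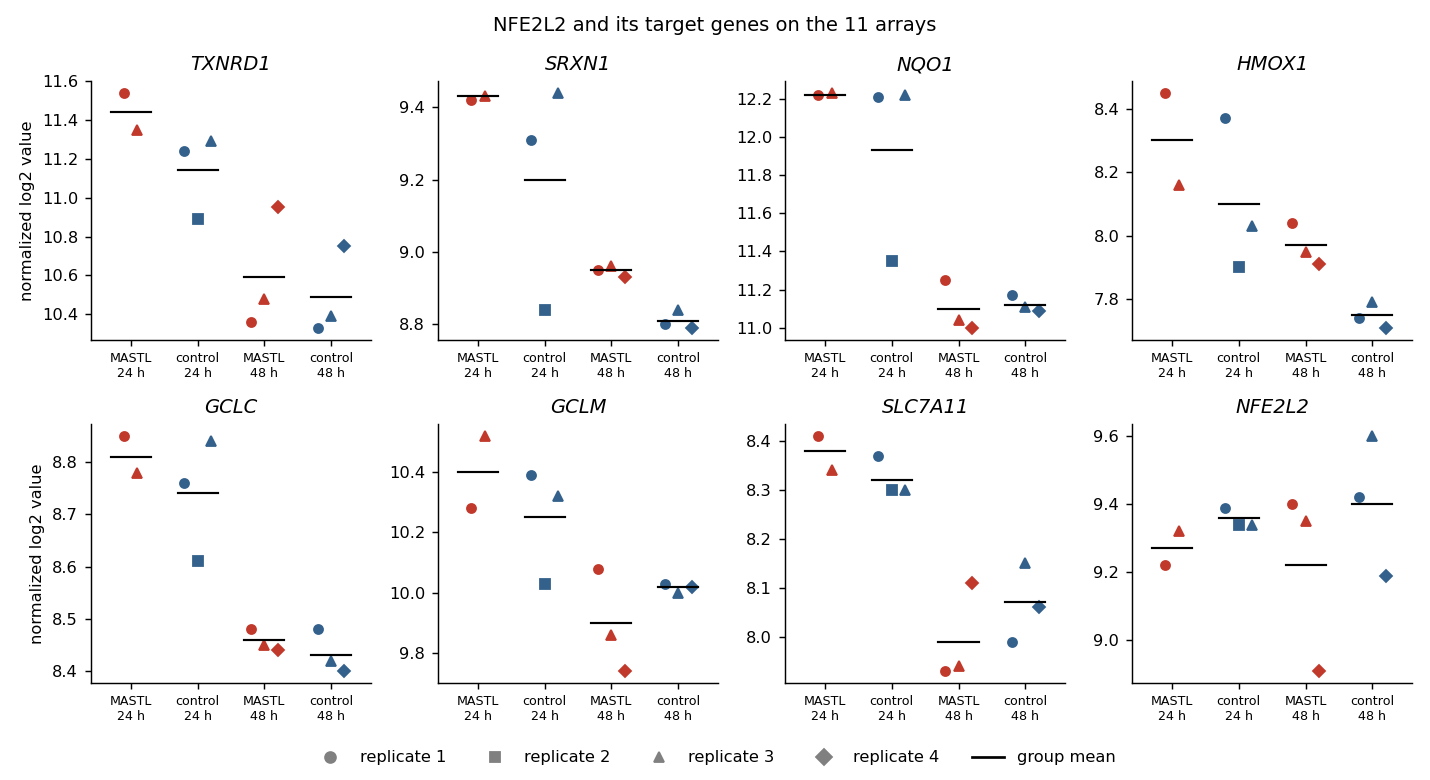
Normalized log2 value (y axis) of the 8 measured genes in MASTL siRNA (red) and control siRNA (blue) arrays at 24 h and 48 h, with 1 point an array, the replicate number as the marker and the group mean as a line. NQO1 lies between 12.21 and 12.23 on 4 of the 5 arrays of 24 h, the exception being control replicate 2 at 11.35, and between 11 and 11.25 at 48 h.

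At 24 h, the 7 targets had positive log2 changes in MASTL-silenced cells, with a median of 0.20 against 0.003 for all features, and the NFE2L2 change was negative. None passed the test, which calls a gene at an adjusted p under 0.05. TXNRD1, the cytosolic thioredoxin reductase, had log2 values of 11.54 and 11.35 under MASTL siRNA at 24 h, against 11.24, 10.89 and 11.29 under control siRNA. Both MASTL siRNA arrays lay above all 3 control arrays, and the change of 0.30 (SE 0.199) did not pass the test (limma, adjusted p = 0.769). SRXN1, sulfiredoxin, which reduces overoxidized peroxiredoxins, had 9.42 and 9.43 under MASTL siRNA, against 9.31, 8.84 and 9.44 under control siRNA. The groups overlapped through control replicate 3, and control replicate 2 was the low array (log2 change 0.23, SE 0.139).

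NQO1, a quinone reductase, had log2 values of 12.22 and 12.23 under MASTL siRNA at 24 h, against 12.21, 11.35 and 12.22 under control siRNA. The arrays did not overlap, but the 4 arrays other than control replicate 2 differed by at most 0.013 between same-numbered arrays. HMOX1, heme oxygenase 1, had 8.45 and 8.16 under MASTL siRNA, against 8.37, 7.90 and 8.03 under control siRNA, with overlap between the groups (log2 change 0.20, SE 0.131).

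GCLC, the catalytic subunit of glutamate-cysteine ligase, had log2 values of 8.85 and 8.78 under MASTL siRNA at 24 h, against 8.76, 8.61 and 8.84 under control siRNA. GCLM, its modifier subunit, had 10.28 and 10.52 under MASTL siRNA, against 10.39, 10.03 and 10.32 under control siRNA. SLC7A11, the cystine-glutamate exchanger that brings in cystine for glutathione, had 8.41 and 8.34 under MASTL siRNA, against 8.37, 8.30 and 8.30 under control siRNA. In each of these 3 genes the groups overlapped, and the log2 changes were 0.078 (SE 0.06), 0.16 (SE 0.126) and 0.051 (SE 0.0626). NFE2L2 itself had 9.22 and 9.32 under MASTL siRNA, against 9.39, 9.34 and 9.34 under control siRNA. Both MASTL siRNA arrays were the lowest of the 5, and the change of -0.086 (SE 0.151) did not pass the test (limma, adjusted p = 0.941).

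At 24 h, limma called 0 of the 8 genes after Benjamini-Hochberg adjustment over all features, where it called 0.887% of features, and 0 had an unadjusted p under 0.05, where 9.05% of features had. The groups did not overlap for 2 targets that were higher under MASTL siRNA, NQO1 and TXNRD1, against 13.4% of all features, and for NFE2L2, which was lower, against 11.7%. The 24 h changes leaned on control replicate 2, whose mean log2 value over the 7 targets was 9.42, against 9.81 and 9.78 on control replicates 1 and 3 and 9.88 and 9.83 on the MASTL siRNA arrays. Without it the changes were 0.18 for TXNRD1, 0.1 for HMOX1, 0.051 for SRXN1, 0.045 for GCLM, 0.039 for SLC7A11, 0.014 for GCLC and 0.0085 for NQO1.

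**Figure D2:**
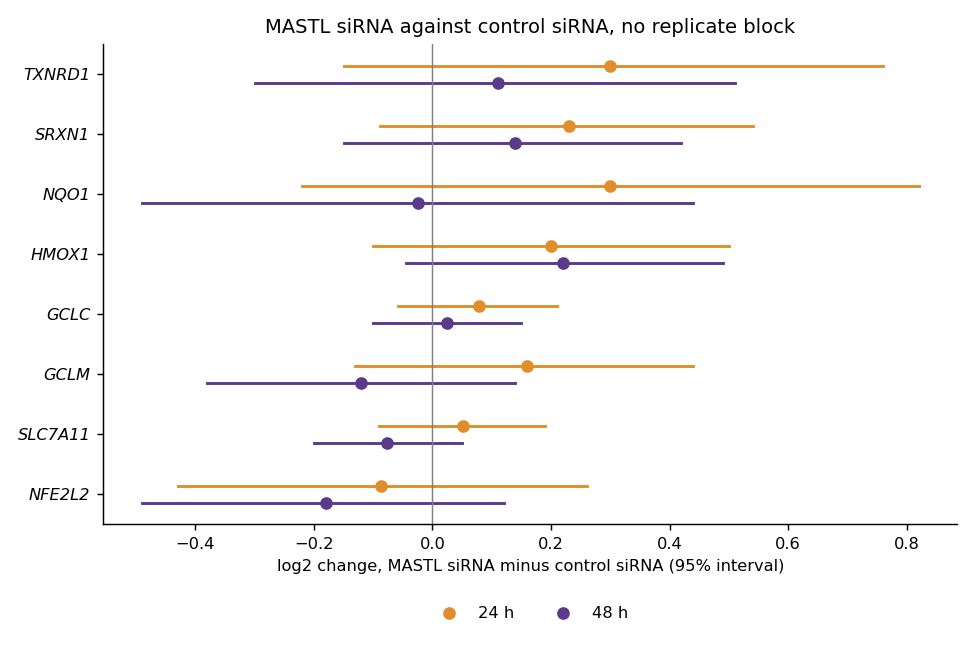
Log2 change of each gene (x axis, MASTL siRNA minus control siRNA) at 24 h (orange) and 48 h (purple), with 95% intervals from limma without a replicate block. Every interval includes 0, from -0.22 to 0.82 for NQO1 at 24 h to -0.10 to 0.15 for GCLC at 48 h.

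At 48 h, HMOX1 and SRXN1 were the targets that stood apart in MASTL-silenced cells. HMOX1 had log2 values of 8.04, 7.95 and 7.91 under MASTL siRNA at 48 h, against 7.74, 7.79 and 7.71 under control siRNA. The 3 MASTL siRNA arrays lay above the 3 control arrays, with means of 7.97 ± 0.0675 and 7.75 ± 0.0445 (SD, n = 3 each) and a log2 change of 0.22, or 1.17-fold (SE 0.117, limma, adjusted p = 0.472). SRXN1 had 8.95, 8.96 and 8.93 under MASTL siRNA, against 8.80, 8.84 and 8.79 under control siRNA. These groups were also apart, with means of 8.95 ± 0.0136 and 8.81 ± 0.0232 (SD, n = 3 each) and a log2 change of 0.14, or 1.1-fold (SE 0.125, limma, adjusted p = 0.738).

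TXNRD1 had log2 values of 10.36, 10.48 and 10.95 under MASTL siRNA at 48 h, against 10.33, 10.39 and 10.75 under control siRNA. Replicate 4 was the highest array of both groups, the groups overlapped, and the change of 0.11 became -0.07 without MASTL siRNA replicate 4. NQO1 had 11.25, 11.04 and 11 under MASTL siRNA, against 11.17, 11.11 and 11.09 under control siRNA, with overlap and a change of -0.025 (95% interval -0.49 to 0.44).

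GCLC had log2 values of 8.48, 8.45 and 8.44 under MASTL siRNA at 48 h, against 8.48, 8.42 and 8.40 under control siRNA. GCLM had 10.08, 9.86 and 9.74 under MASTL siRNA, against 10.03, 10.00 and 10.02 under control siRNA. SLC7A11 had 7.93, 7.94 and 8.11 under MASTL siRNA, against 7.99, 8.15 and 8.06 under control siRNA. The groups overlapped for all 3 genes, and the changes were 0.025, -0.12 and -0.077. NFE2L2 had 9.40, 9.35 and 8.91 under MASTL siRNA, against 9.42, 9.60 and 9.19 under control siRNA. Replicate 4 was the lowest array of both groups, and the change was -0.18 (SE 0.135).

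At 48 h, limma without a replicate block called 0 of the 8 genes, against 2.31% of features, and 0 had an unadjusted p under 0.05, against 13.9%. The median change of the 7 targets was 0.025, against 0.0012 for all features, with 4 targets positive. The groups did not overlap for 2 targets, HMOX1 and SRXN1, both higher, against 10.1% of all features. At this time same-numbered arrays deviated together, so the fit was repeated with a block for each same-numbered pair, which also paired the 24 h arrays. With that block HMOX1 rose by 0.22 (SE 0.0334, limma, adjusted p = 0.0129) and SRXN1 by 0.14 (SE 0.029, limma, adjusted p = 0.0369). These 2 of 8 genes compare with 6.27% of all features called higher and 12.1% called in either direction in that fit. NFE2L2 missed the threshold (change -0.18, SE 0.0578, limma, adjusted p = 0.114). The SRXN1 call ended without any 1 of the 3 pairs of 48 h, with changes of 0.13 to 0.14 and adjusted p of 0.136 to 0.154 (limma), and the HMOX1 call ended without pair 4 (0.23, limma, adjusted p = 0.0572) but not without pair 1 (0.18, adjusted p = 0.0472) or pair 3 (0.25, adjusted p = 0.0373).

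Within same-numbered pairs, HMOX1 was higher under MASTL siRNA in 5 of 5 pairs, by 0.077 to 0.30. TXNRD1 was also higher in 5 of 5 pairs with its brighter probe, by 0.035 to 0.30, but in 2 of 5 with its second probe, by -0.2 to 0.41. Of all features, 12.2% were higher in 5 of 5. NFE2L2 was lower in 5 of 5 pairs, by 0.017 to 0.27, as were 10.6% of features. SRXN1 and GCLC were higher in 4 of 5 pairs each, NQO1 and SLC7A11 in 3, and GCLM in 2. Averaged over both times without a block, limma called 0 of the 8 genes, against 4.61% of features, and HMOX1 alone had an unadjusted p under 0.05 (change 0.21, SE 0.0879, adjusted p = 0.269), against 16.6% of features. With the pair block the averaged HMOX1 change was 0.16 (SE 0.0264, limma, adjusted p = 0.015), 1 of 8 genes, where 6.92% of features were called higher and 13.3% in either direction; control replicate 2 of 24 h has no partner and does not enter that value. That call ended without pair 1 of 24 h (0.17, limma, adjusted p = 0.0594) or pair 3 of 24 h (0.15, limma, adjusted p = 0.0742).

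**Figure D3:**
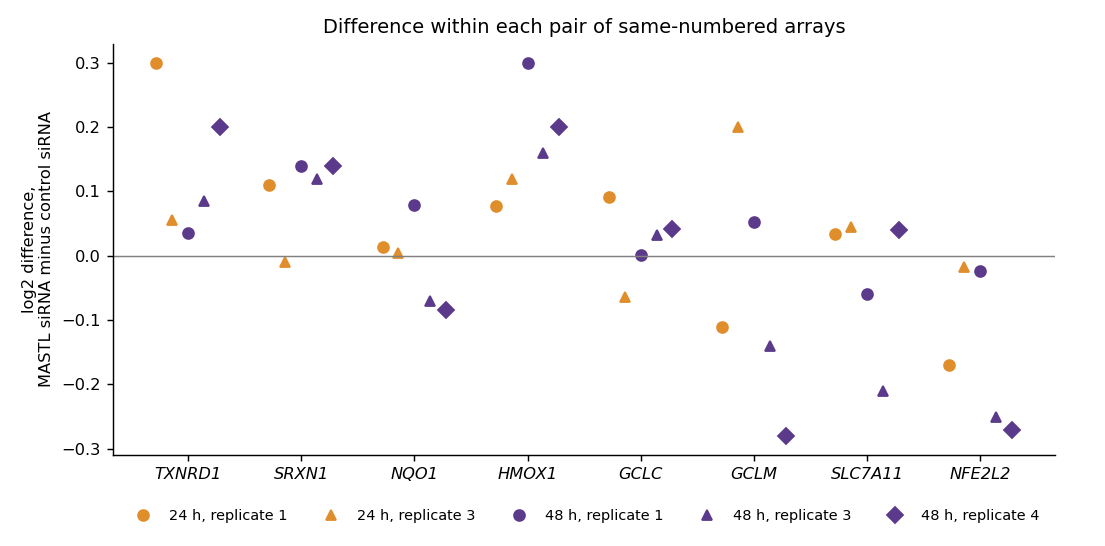
Log2 difference (y axis, MASTL siRNA minus control siRNA) within each pair of same-numbered arrays at 24 h (orange) and 48 h (purple), with 1 point a pair and the replicate number as the marker. The 5 HMOX1 and the 5 TXNRD1 points lie above 0, and the 5 NFE2L2 points lie below it.

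The MASTL siRNA effect was also compared between the times. The 48 h change minus the 24 h change ranged from -0.32 (SE 0.308) for NQO1 to 0.022 (SE 0.176) for HMOX1. Limma called 0 of the 8 genes and 0% of features for this difference, while 0 of the 8 and 3.05% of features had an unadjusted p under 0.05. The 95% intervals were wide, from -1.02 to 0.38 for NQO1 and from -0.24 to 0.13 for GCLC, so a difference between the times was not detectable with these arrays, which is no evidence that the effects were equal.

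For each of the 7 targets, both changes between the times were larger in size than both changes between the siRNAs, a difference that was not tested. Under MASTL siRNA, 7 of 7 targets had lower values at 48 h than at 24 h, with no overlap between the arrays of the 2 times, against 14.8% of all features. Under control siRNA, 6 of 7 were lower without overlap, against 7.31% of features, the exception being GCLM. Of the 7 targets, 6 (TXNRD1, SRXN1, NQO1, HMOX1, GCLC and SLC7A11) were lower without overlap under both siRNAs, against 2.31% of features. NQO1 had the largest mean change of the 7, with values of 11.25, 11.04 and 11 at 48 h against 12.22 and 12.23 at 24 h under MASTL siRNA. Under control siRNA it had 11.17, 11.11 and 11.09 at 48 h, against 12.21, 11.35 and 12.22 at 24 h.

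The NQO1 change from 24 h was -1.13 (SE 0.23) under MASTL siRNA and -0.80 (SE 0.205) under control siRNA. TXNRD1 changed by -0.85 (SE 0.199) under MASTL siRNA and by -0.65 (SE 0.178) under control siRNA. The changes under MASTL siRNA were -0.51 for GCLM, -0.48 for SRXN1, -0.38 for SLC7A11, -0.36 for GCLC and -0.33 for HMOX1. Under control siRNA they were -0.23 for GCLM, -0.39 for SRXN1, -0.25 for SLC7A11, -0.30 for GCLC and -0.36 for HMOX1. NFE2L2 did not share this pattern in its values, with changes of -0.051 (SE 0.151) and 0.047 (SE 0.135) and overlapping arrays under both siRNAs. The median change of the 7 targets was -0.48 under MASTL siRNA and -0.36 under control siRNA, against -0.0027 and -0.0023 for all features.

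Within each siRNA, limma called 0 of the 8 genes between the times, against 0.00448% of features under MASTL siRNA and 0% under control siRNA. An unadjusted p under 0.05 was reached by 7 of 8 genes under MASTL siRNA, against 9.52% of features, and by 6 of 8 under control siRNA, against 9.82%. Both comparisons share 1 estimate of the spread, and without 24 h control replicate 2 limma called 3 genes lower at 48 h under each siRNA, NQO1, GCLC and SRXN1. In that fit 0.0582% of features were called lower under MASTL siRNA (0.0941% in either direction) and 0.0806% under control siRNA (0.175% in either direction). Under MASTL siRNA the adjusted p was then 0.00633 for NQO1, 0.0295 for GCLC and 0.013 for SRXN1. Under control siRNA it was 0.00531 for NQO1, 0.024 for GCLC and 0.00531 for SRXN1. Control replicate 2 stood out at 24 h by the targets' own values (mean 9.42). Calls without it rest on a choice made from those same values and are no separate support.

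Averaged over both siRNAs, a comparison added after the values were seen, 3 of the 8 genes fell at 48 h, against 0.323% of features called lower and 0.654% in either direction. NQO1 changed by -0.97 (limma, adjusted p = 0.0448), GCLC by -0.33 (limma, adjusted p = 0.0305) and SLC7A11 by -0.32 (limma, adjusted p = 0.0373). TXNRD1 missed the threshold at -0.75 (limma, adjusted p = 0.0515). These calls were near the threshold: leaving out 1 array ended the NQO1 call in 10 of 11 cases (adjusted p 0.0588 to 0.172), the GCLC call in 7 (0.0674 to 0.153) and the SLC7A11 call in 8 (0.063 to 0.154), with changes of -1 to -0.89, -0.35 to -0.31 and -0.34 to -0.30. Without 24 h control replicate 2 alone, 7 of 7 targets were called lower, against 1.51% of features (2.93% in either direction), with adjusted p between 0.000516 for NQO1 and 0.0467 for HMOX1. That array was singled out by the targets' own values, so these calls are no separate support for the fall. Replicate numbers did not pair arrays across the times, and other differences between the 24 h and 48 h arrays cannot be told apart from time.

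**Figure D4:**
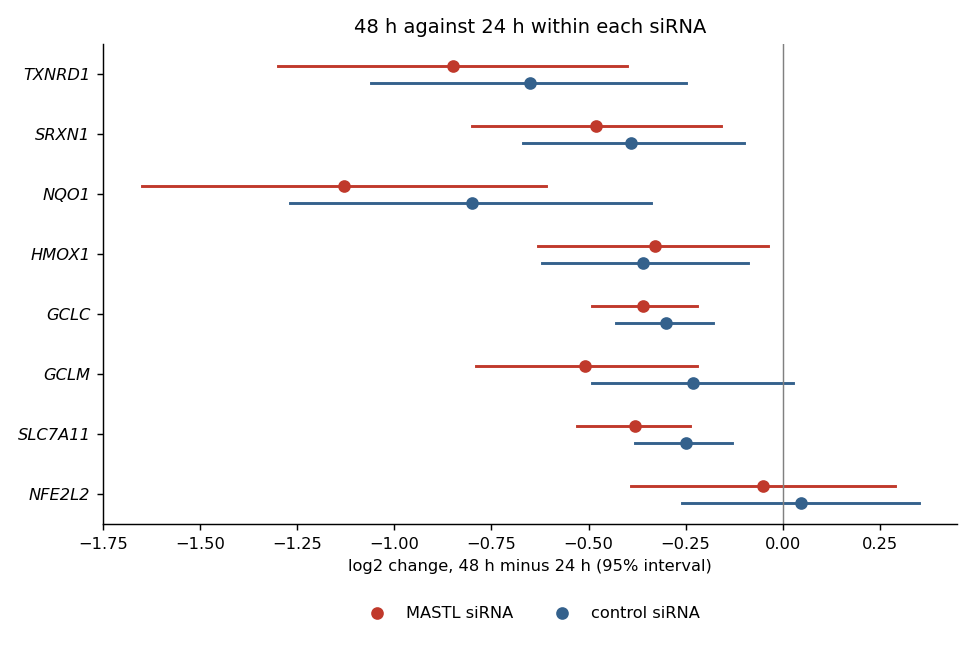
Log2 change of each gene (x axis, 48 h minus 24 h) under MASTL siRNA (red) and control siRNA (blue), with 95% intervals from limma without a replicate block. The target means are left of 0 under both siRNAs, from -1.13 for NQO1 to -0.23 for GCLM, and NFE2L2 lies at -0.051 and 0.047.

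A second probe was on the array for 4 genes, TXNRD1, GCLM, NQO1 and GCLC. The second TXNRD1 probe had log2 values of 10.48 and 10.70 under MASTL siRNA at 24 h, against 10.66, 10.25 and 10.30 under control siRNA, and 9.85, 9.83 and 9.87 under MASTL siRNA at 48 h, against 9.89, 9.80 and 10.06 under control siRNA. Its MASTL siRNA change was 0.19 at 24 h and -0.07 at 48 h, so the probes differed in sign at 48 h, where both were within their error. Between the times, averaged over both siRNAs, it fell by 0.61 (limma at probe level, adjusted p = 0.0384). The second GCLM probe also fell between the times, by 0.21 (limma at probe level, adjusted p = 0.044), and its MASTL siRNA changes were 0.00074 and -0.063. The second NQO1 probe lay between 7.43 and 7.65, close to the noise limit of 7.408. It changed by -0.05 between the times (limma at probe level, adjusted p = 0.571), and its MASTL siRNA changes were -0.036 and -0.013. The second GCLC probe was above that limit on 0 arrays. Within same-numbered pairs the second probe was higher under MASTL siRNA in 2 of 5 for NQO1, 1 of 5 for GCLM and 4 of 5 for GCLC.

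The wider pathway was read from 10 lists with 130 genes, of which 111 were tested. These lists too were chosen with earlier results of these data known, so the shares of all features beside them are a description. At 24 h limma called 0 of them higher and 1 lower, and at 48 h 4 higher and 5 lower, against 0.237% and 0.65% of features at 24 h and 1.03% and 1.29% at 48 h. The median change of the 111 genes was -0.0078 at 24 h and -0.018 at 48 h. With the pair block the counts were 2 higher and 7 lower at 24 h, against 1.08% and 1.81% of features, and 12 higher and 23 lower at 48 h, against 6.27% and 5.83%.

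Among 12 tested regulators of NRF2, 1 rose and 1 fell at 48 h, against 1.03% and 1.29% of features. DPP3, a peptidase that binds KEAP1, had log2 values of 8.58, 8.61 and 8.65 under MASTL siRNA, against 8.27, 8.28 and 8.32 under control siRNA. The arrays were well apart, with a change of 0.33 (limma, adjusted p = 0.00189), and its other 2 probes changed by 0.36 and 0.27. GSK3B, a kinase that marks NRF2 for degradation through BTRC, had 8.70, 8.66 and 8.62 under MASTL siRNA, against 8.99, 9.03 and 8.89 under control siRNA. Its change was -0.31 (limma, adjusted p = 0.0126), and leaving out 1 array of 48 h (control replicate 1 or 3, or MASTL siRNA replicate 3) gave adjusted p of 0.0506 to 0.0583. KEAP1, the sensor itself, changed by -0.0024 (SE 0.0572). With the pair block 3 of the 12 regulators were called higher and 2 lower, against 6.27% and 5.83% of features. These were DPP3 and GSK3B, as without the block, and 3 further genes. RBX1, the RING subunit of the CUL3 ligase, was higher (change 0.26, limma with the block, adjusted p = 0.00872), as was BTRC, a substrate receptor in NRF2 degradation (0.15, adjusted p = 0.0364). SQSTM1, an autophagy receptor that binds KEAP1, was lower (-0.36, adjusted p = 0.0156, against 0.439 without the block).

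Of 21 tested genes of glutathione synthesis and use, 1 rose and 1 fell at 48 h, against 1.03% and 1.29% of features. GPX3, a secreted glutathione peroxidase, had log2 values of 8.92, 8.76 and 8.92 under MASTL siRNA, against 9.63, 9.55 and 9.67 under control siRNA. GSTA4, a glutathione transferase for lipid aldehydes, had 8.20, 8.20 and 8.08 under MASTL siRNA, against 7.82, 7.82 and 7.83 under control siRNA. GPX3 was lower on every MASTL siRNA array (change -0.75, limma, adjusted p = 0.00312) and GSTA4 was higher on every one (change 0.33, limma, adjusted p = 0.00589). With the pair block 2 of the 21 genes were called higher and 4 lower, against 6.27% and 5.83% of features.

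Of 14 tested genes for quinone, carbonyl and drug detoxification, CYP1B1, a cytochrome P450 driven by the aryl hydrocarbon receptor, was the 1 called gene, at both times. Of all features, 0.65% were called lower at 24 h and 1.29% at 48 h. It had log2 values of 9.05 and 8.93 under MASTL siRNA at 24 h, against 9.90, 9.76 and 10.11 under control siRNA, and 8.87, 8.84 and 8.67 at 48 h under MASTL siRNA, against 9.44, 9.46 and 9.37. The groups did not overlap at either time, and the changes were -0.93 (limma, adjusted p = 0.00393) and -0.63 (limma, adjusted p = 0.00829). Without MASTL siRNA replicate 3 of 24 h the first was -0.88 (limma, adjusted p = 0.0537). With the pair block 0 of the 14 genes were called higher at 48 h and 2 lower, against 6.27% and 5.83% of features.

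Of 6 tested transporters, 1 was called at 48 h, against 1.03% of features called higher. ABCC4, an exporter of organic anions, rose by 0.23 (limma, adjusted p = 0.0319), and its other probe changed by 0.27. Leaving out 1 array ended that call in 6 of 11 cases, with adjusted p up to 0.113. Those arrays were control replicate 1 of 24 h and, at 48 h, control replicates 1, 3 and 4 and MASTL siRNA replicates 1 and 3. Of 13 other reported NRF2 targets, 1 was called at 48 h, against 1.29% of features called lower. PIR, an iron-binding nuclear protein, fell by 0.40 (limma, adjusted p = 0.0273) and its other probe changed by -0.17. The PIR call ended without 1 of 4 arrays of 48 h, control replicate 3 or 4 or MASTL siRNA replicate 1 or 4, with adjusted p up to 0.109. With the pair block 1 of these 13 targets was called higher and 5 lower, against 6.27% and 5.83% of features. Of the 6 transporters, 1 was called higher and 1 lower in that fit.

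Of 12 tested stress genes with other inputs, DNAJB1, an HSP40 chaperone, had log2 values of 9.20, 9.22 and 9.25 under MASTL siRNA at 48 h, against 8.84, 8.76 and 8.79 under control siRNA. ATF4, a transcription factor of the amino acid response, had 12.03, 12.17 and 12.48 under MASTL siRNA, against 12.76, 12.88 and 12.77 under control siRNA. DNAJB1 rose by 0.43 (limma, adjusted p = 0.00846) and ATF4 fell by 0.57 (limma, adjusted p = 0.0224). Thus 1 of the 12 genes was called higher and 1 lower, against 1.03% and 1.29% of features. With the pair block 2 were called higher and 3 lower, against 6.27% and 5.83%. The 3 ATF4 probes disagreed, since the other 2 changed by -0.43 and 0.0057, and the ATF4 call ended without 48 h control replicate 1, 3 or 4 or MASTL siRNA replicate 3, with adjusted p up to 0.0941.

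In the remaining 4 lists, limma without a block called 0 of 33 genes at either time, and 3 at 24 h and 6 at 48 h had an unadjusted p under 0.05, against 9.05% and 13.9% of features. They held 12 tested thioredoxin and peroxiredoxin genes, 7 of NADPH supply, 7 of heme and iron and 7 superoxide and peroxide enzymes. At 48 h the changes were 0.061 for TXN (thioredoxin) and 0.19 for PRDX1 (a peroxiredoxin), and 0.16 for TALDO1 and 0.09 for TKT, both of the pentose phosphate pathway. They were -0.17 for FTL (ferritin light chain) and 0.33 for TFRC (the transferrin receptor), and -0.07 for CYBA (an NADPH oxidase subunit) and 0.23 for SOD1 (the cytosolic superoxide dismutase). With the pair block 3 of the 33 genes were called higher at 48 h and 6 lower, against 6.27% and 5.83% of features. The 3 higher genes were TFRC (limma, adjusted p = 0.00592), SOD1 (0.00848) and SELENOW, a selenoprotein (change 0.22, 0.0159). The lower genes were FTL (limma, adjusted p = 0.0303), SOD2, the mitochondrial superoxide dismutase (-0.65, 0.00617), TXNIP, which binds thioredoxin (-0.47, 0.00754), and IDH1, an NADPH source (-0.36, 0.0306), with BLVRA (-0.24, 0.0319) and HMOX2 (-0.17, 0.0151) of heme breakdown.

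**Figure D5:**
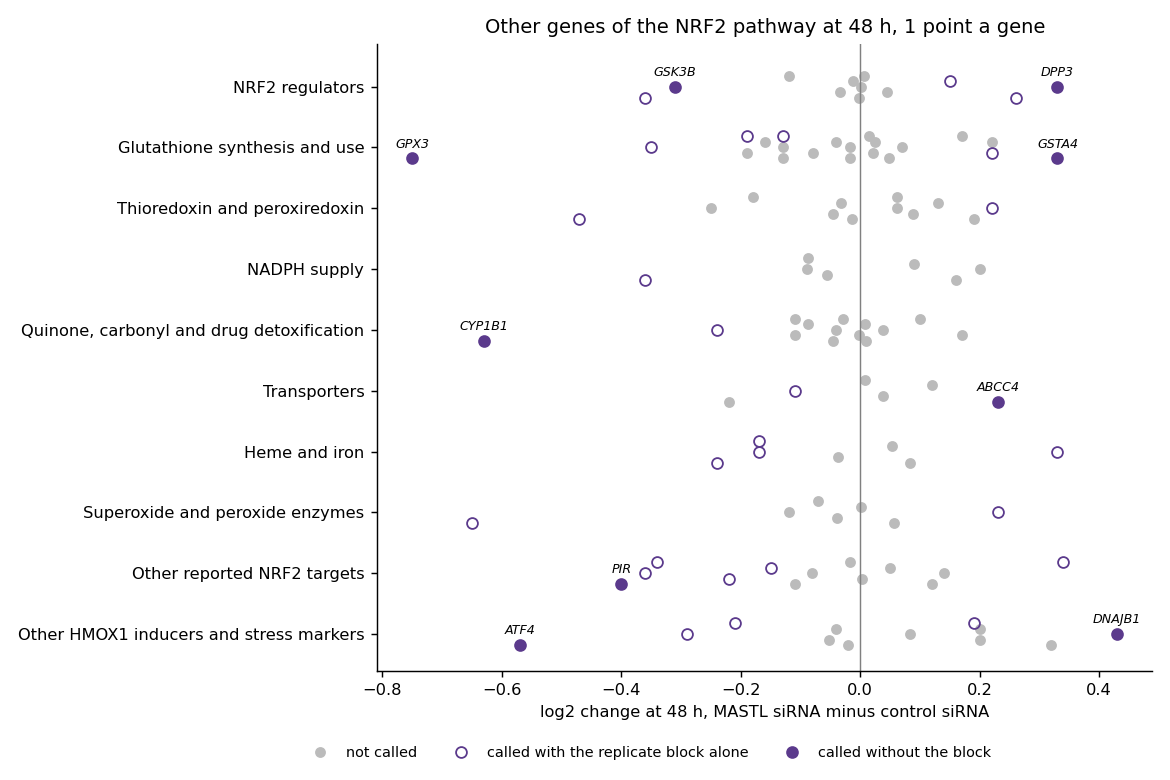
Log2 change at 48 h (x axis, MASTL siRNA minus control siRNA) of the 111 tested genes of the 10 pathway lists, with 1 point a gene; filled purple points were called without the replicate block, open points with the within-time pair block alone and grey points in neither fit. The 9 named points run from -0.75 for GPX3 to 0.43 for DNAJB1.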

How the data were processed

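Expression was measured on Illumina bead arrays with 47321 probes. The authors deposited normalized log2 values for 11 arrays, made with lumi per the submitters' processing notes; the log scale fits their range (7.2365 to 14.512), and the version and other settings are not given in the sources used here. Plain log2 values and lumi's variance-stabilised values could not be told apart; on a variance-stabilised scale differences are smaller at low levels, so folds hold for the deposited scale. Sorted values differed between arrays by at most 0.000698, as after quantile normalization. A table of non-normalized signals was not used because its columns carry no sample labels; 22 columns of per-sample values (11 signals, 11 detection p-values) were left out. Arrays give no counts, and the number of arrays limits the precision.

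Probes were named through the platform annotation, with symbols updated through the Entrez number: 30113 probes had 1 symbol, 8 several and 17200 none. The noise limit of 7.408 was set from the mode of all values (7.356) and the 95th percentile of its lower side mirrored around it. Probes above the limit on at least 2 arrays (27529) were kept, with the probe of highest mean for each gene, which left 22323 features (14094 named genes and 8229 probes without 1 symbol). Limma 3.58.1 in R 4.3.3 fitted 1 mean per group to all 11 arrays (lmFit, eBayes, 7 residual degrees of freedom), two-sided, with Benjamini-Hochberg adjustment over all features and calls at adjusted p under 0.05. The fit without a block was tested on simulated data with independent noise on each array. The fits with a block were not tested in this way.

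Same-numbered arrays at 48 h deviated together from their group means (correlations 0.692, 0.549 and 0.772), and there each number was taken as a pair. The 2 pairs of 24 h gave 0.104 and 0.47, and the block within each time paired them too. Values of 24 h and averages over the times with that block rest on a pairing that these correlations bear out less. That fit leaves fewer residual degrees of freedom than the 7 of the fit without a block. Numbers across the times gave -0.301 to 0.161, which was not taken as pairing.

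The members and the lists were chosen with earlier results of these data known. The text names every member, MASTL, and of each list the genes called (up to 4) or else the 2 of highest mean level; KEAP1, the luminal markers and the genes called with the pair block alone in the regulator list and the lists without a call were added after their values were seen. Alternatives were replicate blocks, cyclic loess, median centring, other filters, probe level, the mean of probes, array weights, a variance trend, arrays of 1 time, leaving out each array, and a threshold of 0.10. Promoter windows came from RefSeq (GRCh38.p14). Figures used matplotlib 3.10.9 in Python 3.11.15.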

Additional observations from a re-analysis of the deposited data

How the results depend on the processing

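No member was called for MASTL siRNA against control siRNA at 24 h under any alternative run. The same held for the 48 h change minus the 24 h change. Across settings other than leaving out 1 array, 874 of 960 gene values kept their direction and their side of the threshold, 49 newly passed it, 12 no longer did and 25 turned sign; without 1 array these were 756, 11, 43 and 26 of 836. The replicate block within each time called 2 members at 48 h and 1 averaged over the times, and a fit of 48 h arrays with the replicate block, added after seeing the data, also called 2, where 12.2% of features were called. That block with 1 pair left out, also added after seeing the data, called 2 members at 48 h without pair 1 (HMOX1, and NFE2L2 lower, -0.26), 1 without pair 3 and 0 without pair 4, where 5.85%, 5.64% and 6.47% of features were called. Averaged over the times it called 2 members without pair 1 and 1 each without pairs 3 and 4 of 48 h. It called 0 without pair 1 and 2 without pair 3 of 24 h. In these averages 7.4% to 9.9% of features were called. Pathway genes called at 48 h numbered 19, 19 and 24 without pairs 1, 3 and 4, against 5.85%, 5.64% and 6.47% of features. The replicate block across times, which the check of pairing did not bear out, called 1 member at 48 h (SRXN1, against 8.36% of features), 5 between the times under MASTL siRNA (7.58%) and 6 under control siRNA (11.5%). For the pathway lists at 24 h, 1 gene was called without a block, against 0.887% of features. The count was 6 with the block across times (1.62% of features) and 9 with the block within each time (2.89%). It was 2 with cyclic loess, with the filter on all arrays, with every probe and with the variance trend. It was 3 with the mean of probes, array weights and a threshold of 0.10, and 0 with arrays of that time alone. At 48 h, 9 genes were called without a block, against 2.31% of features. The count was 19 with the block across times (8.36% of features), 35 with the block within each time (12.1%) and 33 with 48 h arrays and the block (12.2%). It was 14 with array weights and with a threshold of 0.10. For settings named without a share, the share of all features called is not given here. Those counts are therefore not read as a result about the pathway. Leaving out 1 array gave 0 to 2 pathway genes at 24 h and 5 to 11 at 48 h (5 without control replicate 3). The shares of all features called in those fits are not given here, so these ranges are not read as a trait of the pathway. It gave 0 to 3 members between the times under either siRNA. The 3 came without 24 h control replicate 2, where 0.0941% of features were called under MASTL siRNA and 0.175% under control siRNA. Small values turned sign. Averaged over the times, NQO1 was -0.0083 and GCLM -0.038 under both replicate blocks, and GCLM was -0.0092 with cyclic loess, -0.007 with the mean of probes and -0.00092 with array weights. The 48 h change minus the 24 h change was 0.011 for GCLC and 0.085 for SRXN1 under both blocks. NFE2L2 between the times under MASTL siRNA was 0.08 with the block across times and 0.012 with array weights; averaged over the siRNAs it was 0.13 with that block, 0.013 with cyclic loess and 0.061 with array weights. With 1 pair left out, NQO1 was 0.004 at 48 h without pair 4, and averages over the times were -0.034 (pair 1 of 48 h), -0.011 and -0.0061 (pairs 1 and 3 of 24 h) for NQO1, -0.081 and -0.034 (pairs 1 and 3 of 48 h) and -0.11 (pair 3 of 24 h) for GCLM, 0.015 (pair 3 of 48 h) for SLC7A11 and -0.019 (pair 1 of 24 h) for GCLC. Leaving out 1 array gave at 48 h -0.1 to 0.022 for NQO1 and -0.07 to 0.24 for TXNRD1. Averaged over the times it gave -0.0083 to 0.21 for NQO1, -0.042 to 0.077 for GCLM and -0.041 to 0.008 for SLC7A11. For the 48 h change minus the 24 h change it gave -0.13 to 0.17 for HMOX1 and -0.11 to 0.011 for GCLC. It gave -0.21 to 0.085 for SRXN1 and -0.21 to 0.055 for NFE2L2. For NFE2L2 between the times it gave -0.14 to 0.1 under MASTL siRNA, -0.053 to 0.16 under control siRNA and -0.052 to 0.075 for both. The cause was not tested. HMOX1 and SLC7A11 lay within about 1 log2 unit of the noise limit of 7.408, where fold changes can be understated.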

Other observations

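Between 24 h and 48 h, 4 of the 111 tested pathway genes were called (1 higher and 3 lower, against 0.331% and 0.323% of features, 0.654% in all) when the siRNAs were averaged, a comparison added after the values were seen. SLC3A2, the heavy chain that pairs with SLC7A11 in the cystine-glutamate exchanger, fell by 0.84 (limma, adjusted p = 0.0316). The chaperone genes DNAJB1 (fell by 0.28, limma, adjusted p = 0.0448) and HSPA1B (fell by 0.46, limma, adjusted p = 0.0446) were also lower at 48 h; HSPA1B has a near-identical copy, HSPA1A, whose RNA its probe may share. CAT, catalase, rose by 0.33 (limma, adjusted p = 0.0448). DNAJB1 was thus lower at 48 h than at 24 h but higher under MASTL siRNA than under control siRNA at 48 h.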
